A study of Mus musculus with 45 samples.

Results

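The keratin gene family was read in CT26 tumours as every gene whose symbol is Krt followed by digits only, a rule that took 47 of the 47729 genes in the deposited tables and did not use expression. All 47 were listed for both experiments of the study, T2106 with 18 tumours in 6 groups and T2215 with 27 tumours in 9 groups, at 3 tumours a group. By the epithelium in which each is best known, 5 are keratins of simple epithelia, 17 of stratified epithelia, 9 of the hair follicle root sheath and 13 of hair and nail, and 3 (Krt23, Krt80 and Krt222) were put in no class. Of the 47, 25 are type I and 21 type II, and Krt222 was given no type. The symbols with a letter suffix, Krt6a, Krt6b, Krt33a and Krt33b, and the pseudogene Krt8-ps lie outside the rule.

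CT26 is a mouse colon carcinoma line, labelled as undifferentiated, and was grown under the skin of the right flank of HuGEMM mice, which carry a double knock-in of human PD-1 and human TIGIT on a BALB/c background. Serplulimab and pembrolizumab are antibodies to PD-1, and HLX53 and tiragolumab are agents against TIGIT. Injections began on day 8 and each agent was given at 10 mg/kg except in 1 group. In T2106 the groups were vehicle (saline), serplulimab, HLX53, pembrolizumab + tiragolumab, serplulimab + HLX53 at 5 mg/kg of HLX53 (here the lower-dose combination) and serplulimab + HLX53 at 10 mg/kg of each (here the full-dose combination). In T2215 they were vehicle, serplulimab, pembrolizumab, HLX53, tiragolumab, serplulimab + HLX53, serplulimab + tiragolumab, pembrolizumab + HLX53 and pembrolizumab + tiragolumab. All mice carried the same double knock-in and the tumour line is 1 line, grown outside the colon.

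Keratins are the intermediate filament proteins of epithelial cells. A filament is built from pairs of an acidic type I and a basic type II chain, and different epithelia use different pairs: Krt8 and Krt18 (often with Krt7, Krt19 or Krt20) in simple and glandular epithelia, Krt5 and Krt14 in the basal layer of stratified epithelia, and Krt1 and Krt10 in the differentiating layers of the epidermis. Krt20 is best known from the intestinal lining and is a common marker of colorectal carcinoma.

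In the GENCODE M21 annotation of GRCm38, 25 of the 47 genes lie on chromosome 11 between bases 99232761 and 100269871 and 22 lie on chromosome 15 between bases 101347444 and 102032027. The chromosome 11 cluster held 24 type I genes and Krt222. The chromosome 15 cluster held all 21 type II genes and 1 type I gene, Krt18. Krt18 (chr15:102028180-102032027, plus strand) stands 23697 bases from its partner Krt8 (chr15:101996698-102004482, minus strand). Krt20 is at chr11:99428403-99438150, Krt19 at chr11:100140810-100148665 and Krt14 at chr11:100203162-100207548, all on the minus strand, and Krt5 is at chr15:101707070-101712898 on the minus strand.

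The 250 bases before the start are shown for 3 genes whose levels the results below turn on: Krt20, the most abundant keratin, Krt5, which was higher where Krt20 was lower, and Krt10, which was high in a single tumour. They are RefSeq sequences of GRCm38.p6, 5′ to 3′ on the minus strand, from chr11:99438154-99438403, chr15:101712906-101713155 and chr11:99389365-99389614. Capitals mark the letters TATAAA, those of a TATA box.
Krt20: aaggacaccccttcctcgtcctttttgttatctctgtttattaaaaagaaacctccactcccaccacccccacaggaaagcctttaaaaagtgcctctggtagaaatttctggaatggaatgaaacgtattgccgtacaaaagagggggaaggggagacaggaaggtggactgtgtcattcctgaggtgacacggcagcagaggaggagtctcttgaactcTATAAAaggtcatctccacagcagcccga
Krt5: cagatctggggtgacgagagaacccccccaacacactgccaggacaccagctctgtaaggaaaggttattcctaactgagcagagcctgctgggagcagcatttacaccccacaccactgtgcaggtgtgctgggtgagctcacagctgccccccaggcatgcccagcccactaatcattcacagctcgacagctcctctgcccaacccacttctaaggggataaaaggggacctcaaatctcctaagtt
Krt10: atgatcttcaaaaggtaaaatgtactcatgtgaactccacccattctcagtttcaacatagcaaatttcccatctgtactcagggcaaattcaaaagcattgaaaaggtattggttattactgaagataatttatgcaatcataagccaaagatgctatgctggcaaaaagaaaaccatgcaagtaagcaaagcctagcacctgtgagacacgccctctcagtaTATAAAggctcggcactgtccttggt
A promoter entry was found for 34 of the 47 keratins, and for 26 of these it began within 20 bases of the gene start in GENCODE. TATAAA, searched on both strands, stood in 13 of the 26, against 12.4% of 32851 promoter entries of the same length. It lay 29 bases before the start in Krt20 and 26 bases before it in Krt10, and was not in the window of Krt5. The letters TGANTCA (AP-1), GCCNNNGGC (AP-2) and GGGCGG (a GC box), on both strands, each stood in 1 of the 26 keratin windows, and in 6.75%, 13.7% and 32.7% of all entries. The 26 windows were kept for a start near that of GENCODE and the 32851 entries were not, so these shares are not of like sets. A match is a description of letters, not of a bound site.

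Levels are given as FPKM, fragments scaled to transcript length and library size, a unit in which genes can be compared per length. The libraries held 13024 to 14448 genes at 0.5 FPKM or more in T2106 and 12918 to 14442 in T2215. The sums of FPKM were 683380 to 857511 in T2106 and 678636 to 911201 in T2215. Correlations between replicate libraries over genes were 0.829 to 0.992 and 0.893 to 0.991. A few libraries stood apart from their groups. In T2106 this was tumour 2 of the lower-dose combination, whose adipocyte markers summed to 2049 FPKM, where the other tumours of its group were at 92.4 and 357. In T2215 it was tumour 2 of serplulimab + tiragolumab, with epidermal genes, and tumour 1 of serplulimab, with skeletal muscle genes that summed to 19354 FPKM. Results that rest on the first 2 of these are given with and without them.

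The tumours expressed few keratins. A level of 0.5 FPKM in at least 3 libraries, the filter for testing, was reached by 11 of the 47 genes in each experiment and left 36 untested in each. Krt5, Krt7, Krt8, Krt10, Krt14, Krt17, Krt18, Krt19, Krt20 and Krt80 passed in both, Krt15 passed in T2106 and Krt23 in T2215. None of the 36 untested genes reached 0.5 FPKM in any T2106 tumour, and 31 of 36 did not in any T2215 tumour. The 22 root sheath and hair keratins had a highest value of 0.110 FPKM in T2106 and 0.328 FPKM in T2215.

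Krt20 was the highest keratin in 15 of 18 tumours of T2106 and in 25 of 27 of T2215, with medians of 83.5 and 84.2 FPKM. In the T2106 vehicle tumours it was at 91.8, 102 and 120.3 FPKM and made up 73.2%, 71.96% and 78.1% of all keratin FPKM. Krt80, a widely expressed type II keratin, had medians of 20.4 and 15.5 FPKM, and Krt18 had medians of 12.8 and 15.5 FPKM. These 3 genes were above 4 FPKM in every tumour, the lowest being Krt18 at 4.49 FPKM in tumour 2 of serplulimab + tiragolumab. Vim, the vimentin of mesenchymal cells, was at 1355 to 2976 FPKM in T2106 and 1641 to 4028 FPKM in T2215.

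The label of a colon carcinoma was matched by Krt20, while the other intestinal genes given here were at most 2.49 FPKM. Of the 12 intestinal markers, Cdx2, a transcription factor of the intestinal lining, was no higher than 0.331 FPKM in T2106 and 0.638 FPKM in T2215. The cadherin Cdh17 was at 0.651 to 2.36 FPKM in T2106 and 0.287 to 2.49 FPKM in T2215. Cdx1, Vil1, Lgr5, Muc2, Gpa33 and Hnf4a were at most 0.434 FPKM in any tumour, the value of Muc2 in tumour 2 of T2215 vehicle. Tff3, Fabp2, Slc26a3 and Car1, also in the list, are not given here. The epithelial adhesion genes Epcam and Cdh1 had medians of 0.450 and 0.614 FPKM in T2106 and 1.12 and 0.733 FPKM in T2215.

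Krt18 and its partner Krt8 were not at like levels. Krt18 was above Krt8 in all 18 and all 27 tumours. In the T2106 vehicle tumours Krt18 was at 9.26, 12.1 and 10.4 FPKM while Krt8 was at 0.103, 3.28 and 1.75 FPKM. The ratio of Krt8 to Krt18 ran from 0.00124 in tumour 3 of the lower-dose combination to 0.991 in tumour 3 of the full-dose combination in T2106, and from 0.0186 to 0.833 in T2215. The tumours with the least Krt8 in T2106, at 0.0163, 0.0823 and 0.103 FPKM, still had Krt18 at 13.1, 12.8 and 9.26 FPKM. Krt8-ps, a processed pseudogene of Krt8, was at 0.0293 FPKM or less in every tumour, so reads assigned to it were few.

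**Figure D1:**
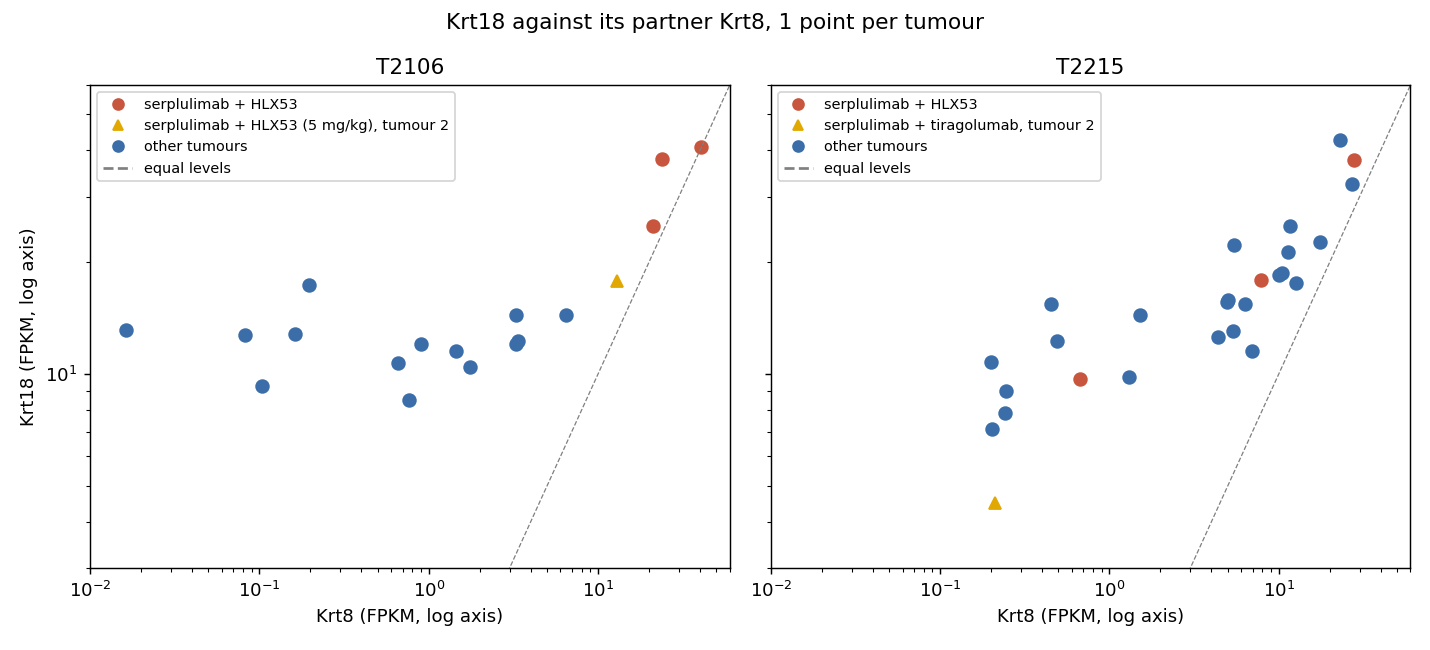
Krt18 (vertical, FPKM, log axis) against Krt8 (horizontal, FPKM, log axis) in the 18 tumours of T2106 and the 27 of T2215, 1 point per tumour, with a dashed line of equal levels. All points lie above the line, and the 3 tumours of the full-dose combination in T2106 lie at the upper right.

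The keratins changed most with the full-dose combination of serplulimab and HLX53 in T2106. Of the 11 tested members 8 were higher and 1 lower than in vehicle at an adjusted p of at most 0.05 (limma, Benjamini-Hochberg over 15070 genes), against 44% of all genes tested called in either direction, 23.4% higher and 20.6% lower. The median difference was 1.93 on the log2(FPKM + 0.5) scale over the 11 keratins and −0.04 over all genes. Krt5, Krt14, Krt15 and Krt17 met the filter on low values (0.5 FPKM in 3 libraries) only through this group, with 5, 4, 3 and 4 libraries at that level of which 3 were its tumours. They had to differ to be tested, so the count and the median over tested members are a description only, and these 4 genes are given below with their p-values from a fit without the filter. In bulk tumour RNA fewer cells of a type and less RNA per cell cannot be told apart.

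Among the simple keratins, Krt20 fell. It was at 91.8, 102 and 120.3 FPKM with vehicle and at 5.44, 53.1 and 11.5 FPKM with the full-dose combination. The groups did not overlap, and tumour 2 kept more than the other two. The difference was −2.74 ± 0.81 (SE) on the log2 scale (limma, adjusted p = 0.0201, n = 3 against 3). This p-value is from the fit with the filter, and without the filter Krt20 missed the threshold.

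Krt8 rose from 0.103, 3.28 and 1.75 FPKM with vehicle to 21.1, 23.8 and 40.4 FPKM, a log2 difference of 4.01 ± 1.06 (limma, adjusted p = 0.0145). Krt19, a type I keratin of glandular and ductal epithelia, rose from 0.137, 5.86 and 2.62 FPKM to 25.5, 36.9 and 43.5 FPKM, by 3.91 ± 1.12 (limma, adjusted p = 0.0181). The treated tumours were all far above the vehicle tumours for both genes, and the spread among the vehicle tumours was wide. These p-values are from the fit with the filter, and without the filter Krt8 and Krt19 missed the threshold. Krt7, the type II keratin of ducts and glands, rose from 0.0784, 0.650 and 0.451 FPKM to 3.68, 4.12 and 5.36 FPKM, by 2.49 ± 0.54 (limma, adjusted p = 0.010).

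Krt18, which every tumour expressed, rose by less, from 9.26, 12.1 and 10.4 FPKM to 25.0, 37.8 and 40.8 FPKM. Its difference of 1.64 ± 0.23 had a small error (limma, adjusted p = 0.00357). With these changes Krt19 was the highest keratin in tumours 1 and 3 of the group, where Krt20 ranked 5 and 4. Krt20 made up 5.43%, 29.3% and 7.05% of the keratin FPKM there, while the keratin sum of 100.2, 181.5 and 163.7 FPKM overlapped the 125.3, 141.1 and 154.0 FPKM of vehicle.

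The basal keratins of stratified epithelia were near 0 in vehicle tumours. Krt5 was under 0.001, at 0.304 and at 0.0916 FPKM with vehicle and at 4.28, 4.24 and 4.42 FPKM with the full-dose combination (log2 difference 2.96 ± 0.46, limma without the filter, adjusted p = 0.00862). Its partner Krt14 went from 0.0159, 0.270 and 0.0800 FPKM to 3.08, 3.31 and 2.996 FPKM (2.57 ± 0.34, limma without the filter, adjusted p = 0.00347). Both were almost the same in the 3 treated tumours, in which Krt8, Krt19 and Krt20 varied more.

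Krt17, a keratin of basal cells and skin appendages, was under 0.001, at 0.0191 and at 0.0389 FPKM with vehicle and at 1.29, 1.94 and 1.26 FPKM with treatment (1.93 ± 0.25, limma without the filter, adjusted p = 0.00334). Krt15, a keratin of basal cells and the hair follicle bulge, was under 0.001 FPKM in all vehicle tumours and at 0.543, 0.686 and 0.572 FPKM with treatment (1.14 ± 0.10, limma without the filter, adjusted p = 0.000123). The log2 scale understates the change of genes this low.

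The stratified keratins did not all move. Krt10, the type I keratin of the suprabasal epidermis, was at 1.26, 1.23 and 1.52 FPKM with vehicle and at 0.930, 0.967 and 0.963 FPKM with treatment, a difference of −0.33 ± 0.17 that did not pass (limma, adjusted p = 0.114). Its partner Krt1 was at or under 0.00864 FPKM in the 6 tumours of these groups. Krt80 was at 22.2, 15.2 and 16.2 FPKM with vehicle and at 8.64, 13.5 and 10.5 FPKM with treatment (−0.70 ± 0.27), just outside the threshold (limma, adjusted p = 0.0501). Without tumour 2 of the lower-dose combination in the fit its adjusted p was 0.00318, and without tumour 2 of the full-dose combination 0.0318.

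**Figure D2:**
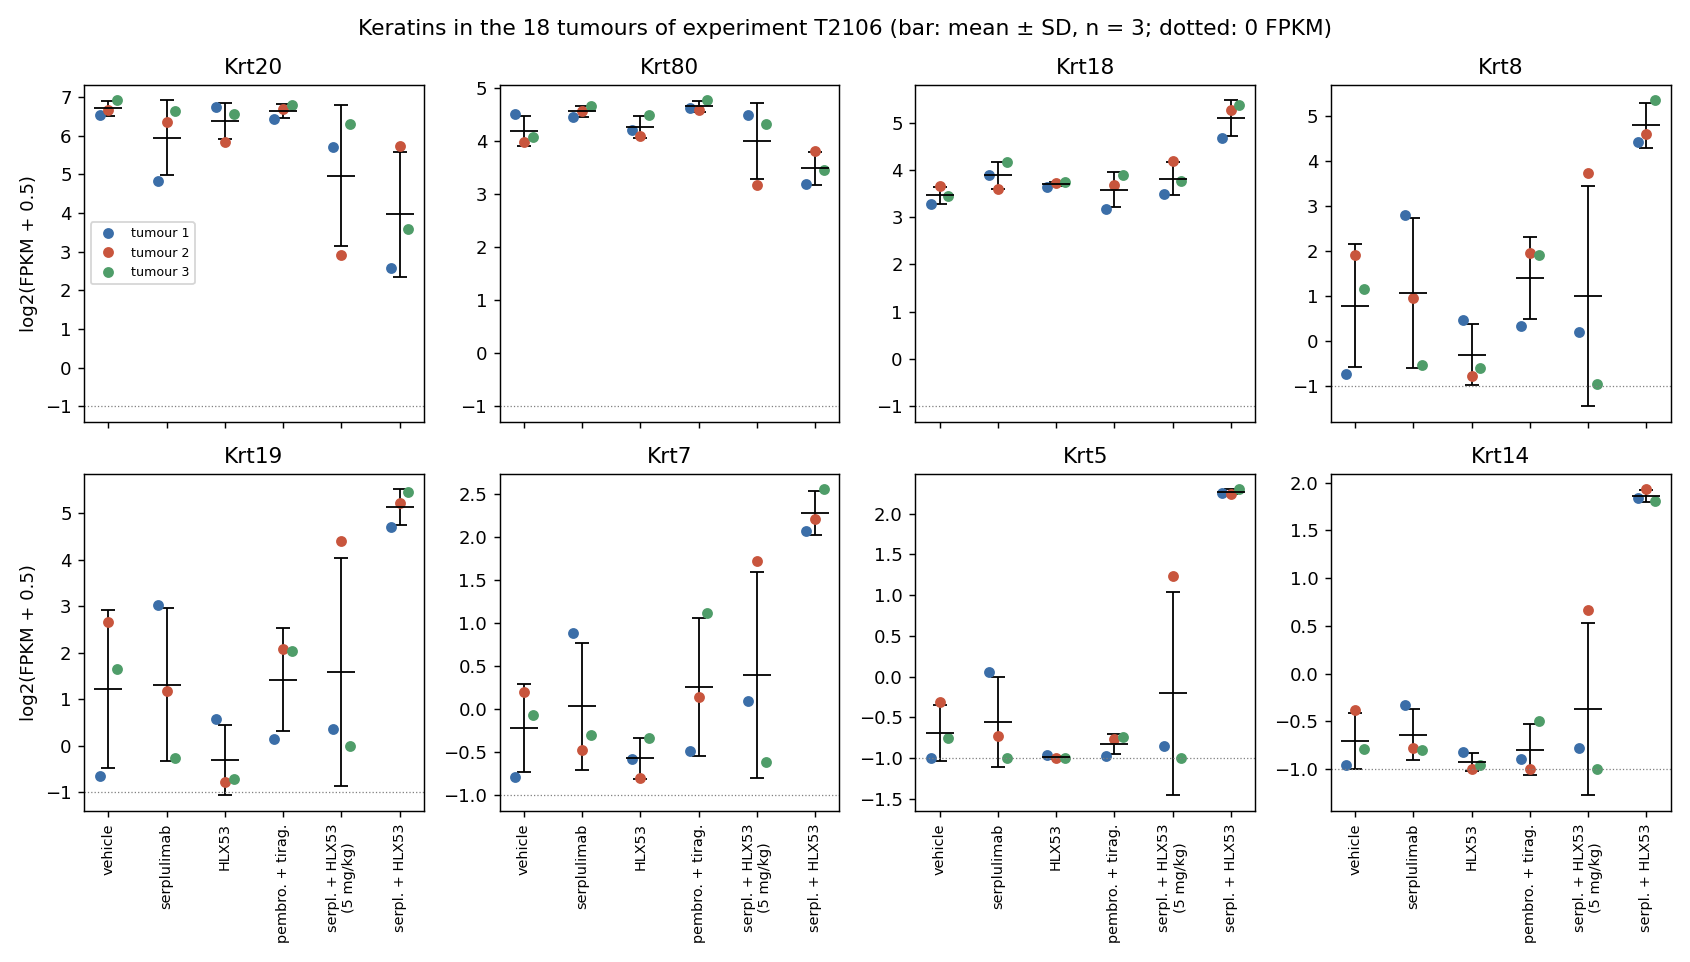
Levels of 8 keratins as log2(FPKM + 0.5) in the 6 groups of T2106, with a point for each tumour, bars for mean ± SD (n = 3) and a dotted line at 0 FPKM. The full-dose combination is highest for Krt18, Krt8, Krt19, Krt7, Krt5 and Krt14 and tumour 2 of the lower-dose combination lies closest to it.

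The calls for Krt8, Krt19 and Krt20 were lost when single tumours were left out. Without tumour 1 of the full-dose combination their adjusted p-values (limma) were 0.0590, 0.0628 and 0.103, without tumour 3 they were 0.0577, 0.0629 and 0.0702, and without tumour 2 all 3 calls stood at 0.0183, 0.0277 and 0.00803. Vehicle tumours mattered too: without tumour 1 of vehicle Krt8 and Krt19 were at 0.0547 and 0.0701, and without tumour 3 of vehicle Krt20 was at 0.0511. Krt15 no longer met the filter without any 1 of the treated tumours, so 5 of the 9 calls were left without tumour 1 or tumour 3 of the full-dose combination.

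Genes of other cell types and epithelia rose in the same 3 tumours. All 11 adipocyte markers were higher than with vehicle (23.4% of all tested genes were), and their sum was 1841 to 2069 FPKM against 81.6 to 412 FPKM. Lpl, the lipoprotein lipase, differed by 5.22 ± 0.97 and the lipid droplet gene Plin4 by 3.09 ± 0.61 (limma, adjusted p = 0.00761 and 0.00855). With the mean level of these 11 genes as a covariate, an alternative chosen after seeing the data, 0 of 11 keratins passed in limma (lowest adjusted p = 0.116). At an unadjusted p under 0.05 that fit had 5 (Krt5, Krt14, Krt15, Krt17 and Krt18). All of these but Krt18 met the filter only through the full-dose combination and had to differ to be tested, so nothing is read from this count. The score was 5.71 to 5.97 in the 3 treated tumours, 5.93 in tumour 2 of the lower-dose combination and at most 3.63 elsewhere, so the group and the adipocyte level can hardly be told apart.

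Beside the lists that follow, 23.4% of all tested genes were higher and 20.6% were lower. Some listed genes, like the basal keratins, may have met the filter only through this group, and then had to differ to be tested. Which ones did was not counted. The counts in these lists are therefore a description only, and nothing is read from them against the share of all genes. Of 15 tested genes of the epithelial surface and junctions 13 were higher and none lower. Epcam was at 8.84 ± 1.19 FPKM (SD, n = 3) with the full-dose combination and 0.434 ± 0.358 FPKM with vehicle, and the tight junction gene Cldn7 was at 2.63 ± 0.33 and 0.127 ± 0.132 FPKM. The sum of the 17 listed genes was 58.5 to 78.0 FPKM against 5.71 to 12.1 FPKM.

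Of 9 tested mammary gland genes 7 were higher (23.4% of all genes) and none lower (20.6%), with a sum of 46.8 to 65.0 FPKM against 13.6 to 30.1 FPKM over 12 listed genes. The prolactin receptor Prlr was at 5.89 ± 0.56 FPKM against 0.244 ± 0.231, the secreted protein gene Wfdc18 at 10.3 ± 3.2 against 0.658 ± 0.908, and the mammary transcription factor Elf5 at 0.994 ± 0.304 against 0.0695 ± 0.0874. The list was not uniform. Csn2 and Wap were at most 0.0749 and 0.0670 FPKM in every T2106 tumour. Csn3 was highest in tumour 2 of HLX53, at 23.9 FPKM, and Areg in tumour 3 of the lower-dose combination, at 18.2 FPKM.

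Markers of the cornified epidermis were mixed. In the list 7 of 9 tested genes were higher and 1 was lower (23.4% and 20.6% of all genes). The sum over the 18 genes in the table was lower, at 63.8 to 129.9 FPKM against 190.7 to 260.9 FPKM. Lgals7 alone had a median of 220 FPKM over the T2106 tumours (15.9 to 293), so the sum says little of the other genes. Sprr1a, a precursor of the cornified envelope, was at 3.04 ± 2.38 FPKM against 0.193 ± 0.213. The terminal differentiation genes Lor and Ivl stayed at or under 0.0156 and 0.0117 FPKM in every T2106 tumour. The part of the adipocytes, the mammary gland and the skin in the keratin result was not tested beyond the covariate fit above.

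Genes that anchor or partner keratin filaments moved both ways. Of 12 tested desmosome and hemidesmosome genes 6 were higher and 3 lower (23.4% and 20.6% of all genes), and the sum over the 20 listed genes was 122 to 198 FPKM against 249 to 266 FPKM with vehicle. The keratin anchor desmoplakin (Dsp) was at 0.707 ± 0.069 FPKM against 0.0319 ± 0.0233 and plakophilin Pkp2 at 0.970 ± 0.168 against 0.161 ± 0.028. Of 7 tested epithelial transcription factors 5 were higher and 1 lower, with a sum over 12 listed genes of 37.1 to 66.1 FPKM against 86.3 to 99.7 FPKM. Elf3, a factor of differentiating epithelia, was at 1.06 ± 0.37 FPKM against 0.0413 ± 0.0403. Such sums follow the most abundant genes of a list and say little of genes as low as Dsp, Pkp2 and Elf3. Plec, in the first of these lists, was at 28.4 to 85.6 FPKM over the T2106 tumours.

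Of the 8 tested intermediate filament genes other than keratins 1 was higher and 5 lower (23.4% and 20.6% of all genes). The sum over 10 listed genes was 1567 to 2194 FPKM against 2833 to 3246 FPKM. Vim, which is among the 10, was alone at 1355 to 2976 FPKM over the T2106 tumours, so the sum is mostly its level. Lmna, the nuclear lamin A/C, was at 199 ± 56 FPKM against 362 ± 14. The nuclear lamin Lmnb1 was at 42.7 ± 8.2 FPKM against 79.4 ± 14.4, and the neural and progenitor filament gene Nes at 7.29 ± 1.42 against 11.7 ± 0.5.

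The full-dose combination was also set against the other treated groups of T2106, comparisons that share its 3 tumours and so are not independent. Against HLX53 alone 8 keratins were higher and 2 lower (26.8% of all genes called, 18.1% higher and 8.69% lower), and against pembrolizumab + tiragolumab also 8 and 2 (42.6%, 25.8% higher and 16.8% lower). Krt80 was among the lower ones in both, at −0.78 ± 0.27 and −1.17 ± 0.27 (limma, adjusted p = 0.0480 and 0.00902). Against serplulimab alone 5 were higher (1.59% called, 1.41% higher and 0.186% lower): Krt5, Krt14, Krt15, Krt17 and Krt18, at differences of 1.14 to 2.82. Against the lower-dose combination the same 5 were higher (0.139% called, 0.133% higher and 0.00664% lower), at 0.98 to 2.47. Of these 5, Krt18 alone did not owe its test to the full-dose tumours, and the other 4 are also among those higher against HLX53 and pembrolizumab + tiragolumab, so nothing is read from any of these counts against the share of all genes.

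The last 2 counts moved with 1 library. Without tumour 2 of the lower-dose combination both counts were 10. Without tumour 3 of serplulimab, or without tumour 1 or 3 of the full-dose combination, the count against serplulimab was 0, without tumour 2 of serplulimab it was 3 and without tumour 1 it was 9. Against the lower-dose combination it was 0 without tumour 1 or 3 of that group or without any 1 tumour of the full-dose combination.

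The other groups of T2106 had no keratin past the threshold against vehicle in limma: serplulimab (0% of all genes called), HLX53 (0.00664%), pembrolizumab + tiragolumab (0%) and the lower-dose combination (1.02%, 0.352% higher and 0.67% lower). At an unadjusted p under 0.05 the keratin count was also 0 in each of these 4. Krt8 was at 6.46, 1.45 and 0.196 FPKM with serplulimab, at 0.898, 0.0823 and 0.163 FPKM with HLX53 and at 0.770, 3.37 and 3.27 FPKM with pembrolizumab + tiragolumab. Each of these groups reached into the vehicle range. Krt5 was at 0.544, 0.104 and under 0.001 FPKM with serplulimab, at 0.0122 and under 0.001 in both other tumours with HLX53, and at 0.0107, 0.0869 and 0.0973 FPKM with pembrolizumab + tiragolumab. Krt20 was at 28.0, 81.3 and 99.3 FPKM with serplulimab, at 107, 57.1 and 93.2 FPKM with HLX53 and at 85.7, 102 and 109.7 FPKM with pembrolizumab + tiragolumab. Tumour 1 of serplulimab, the lowest of these for Krt20, was the highest of them for Krt8 and Krt5.

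The lower-dose combination was not uniform. Krt8 was at 0.662, 12.95 and 0.0163 FPKM, Krt19 at 0.789, 20.7 and 0.502 FPKM and Krt5 at 0.0546, 1.85 and under 0.001 FPKM. Krt20 was at 51.4, 7.00 and 78.6 FPKM. Tumour 2 alone had the pattern of the full-dose combination, with Krt19 as its highest keratin, and its adipocyte sum of 2049 FPKM lay within that group's range. Its skeletal muscle markers summed to 69.8 FPKM, against at most 7.54 FPKM in the rest of T2106. The 95% interval of the difference from vehicle for Krt8 was −2.06 to 2.49, so a change of several-fold in either direction could not be told from none.

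In T2215 no keratin passed the threshold in any of the 13 comparisons (limma, adjusted over 14914 genes, 0% to 0.0134% of all genes called). The count at an unadjusted p under 0.05 was 1 for serplulimab + tiragolumab against vehicle (Krt10) and 0 in the other 12. By comparison with vehicle the share called was 0% for serplulimab, pembrolizumab, HLX53, tiragolumab, serplulimab + HLX53 and serplulimab + tiragolumab, 0.00671% for pembrolizumab + HLX53 and 0.0134% for pembrolizumab + tiragolumab. It was 0.0134% for serplulimab + HLX53 against pembrolizumab + tiragolumab and for any TIGIT agent against none. It was 0% for any PD-1 antibody against none, for HLX53 against tiragolumab and for serplulimab against pembrolizumab.

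The spread within groups was wide for the same genes that moved in T2106. With vehicle Krt8 was at 6.95, 0.201 and 4.38 FPKM, Krt19 at 8.92, 0.736 and 6.99 FPKM and Krt18 at 11.6, 7.10 and 12.6 FPKM. With serplulimab + HLX53 Krt8 was at 7.88, 27.8 and 0.673 FPKM, Krt19 at 12.2, 33.3 and 2.07 FPKM and Krt18 at 17.9, 37.8 and 9.70 FPKM. Tumour 2 of the combination was high for all 3 and the other two lay within or near the vehicle range. The log2 difference for Krt8 was 1.15 ± 1.47 (limma, adjusted p = 0.633), with a 95% interval of −1.92 to 4.21 that includes the difference of 4.01 found in T2106.

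Krt20 with serplulimab + HLX53 was at 59.3, 12.6 and 116 FPKM in T2215, against 33.7, 89.4 and 72.0 FPKM with vehicle. Tumour 2, at 12.6 FPKM, was the lowest of the 27 tumours for Krt20, and was also the highest for Krt8 and Krt7. Its adipocyte markers summed to 4080 FPKM, the highest of the experiment, and Wfdc18 was at 52.1 FPKM. Krt5 and Krt14 in this group were at 1.13, 5.95 and 0.0270 FPKM and at 0.602, 5.72 and 0.0666 FPKM. The share of the adipocytes and the mammary gland in these keratin levels was not tested.

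The difference between the experiments in the effect of a treatment given in both was tested for 10 keratins and 4 treatments by an exact permutation test of 400 relabellings each, two-sided. None of 40 differences passed: the smallest p was 0.055 for Krt10 with serplulimab + HLX53, and all adjusted p-values were at least 0.8. For Krt20 with that combination the effects were −2.74 in T2106 and −0.43 in T2215 (exact permutation p = 0.2). The relabelling supposes no effect in either experiment, so a true effect in either widens the spread used for comparison. With 400 relabellings and 40 tests, a single difference could not have passed after adjustment. So the test cannot decide whether the effects differ between the experiments, although the calls differ.

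**Figure D3:**
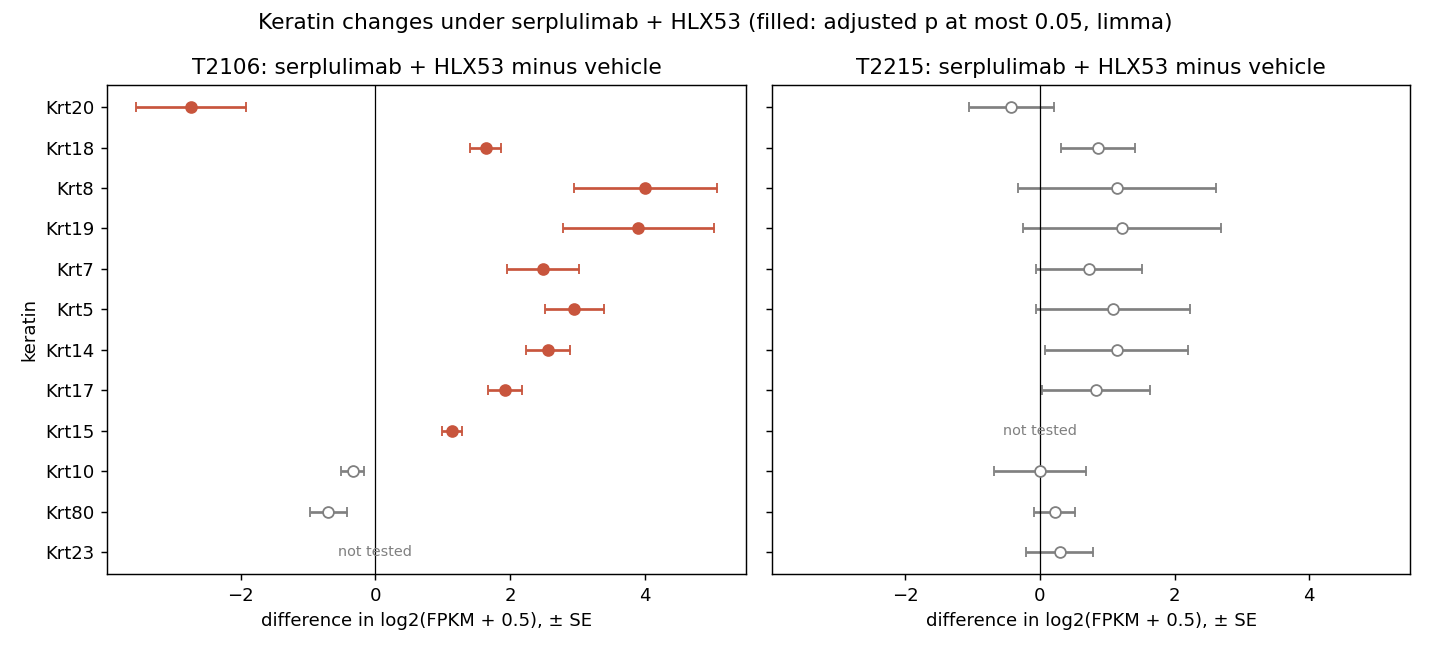
Difference in log2(FPKM + 0.5) between serplulimab + HLX53 and vehicle for each tested keratin in T2106 (left) and T2215 (right), with SE bars and filled points at an adjusted p of at most 0.05. In T2106 8 keratins lie to the right of 0 and Krt20 at −2.74, and in T2215 the bars are wider and no point is filled. The points are from the fit with the filter, which Krt5, Krt14, Krt15 and Krt17 met in T2106 only through this group. Without the filter Krt8, Krt19 and Krt20 missed the threshold in T2106.

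The other T2215 groups were as mixed. Krt8 was at 23.1, 4.97 and 0.245 FPKM with serplulimab, at 5.47, 5.35 and 0.200 FPKM with pembrolizumab and at 0.449, 11.6 and 10.5 FPKM with HLX53. With tiragolumab it was at 0.240, 1.30 and 1.51 FPKM, and with serplulimab + tiragolumab at 6.28, 0.210 and 10.0 FPKM. With pembrolizumab + HLX53 it was at 12.7, 17.4 and 11.3 FPKM, and with pembrolizumab + tiragolumab at 0.487, 5.00 and 27.1 FPKM. Pembrolizumab + HLX53 was the group in which all 3 tumours were above vehicle, with a difference of 2.26 ± 1.47 that did not pass (limma, adjusted p = 0.763).

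Krt19 was high in the same tumours as Krt8. It was at 33.2, 7.73 and 0.645 FPKM with serplulimab, at 6.61, 6.43 and 0.288 FPKM with pembrolizumab, at 0.408, 22.8 and 9.95 FPKM with HLX53 and at 0.0437, 1.77 and 1.88 FPKM with tiragolumab. With the combinations it was at 8.84, 0.423 and 14.5 FPKM (serplulimab + tiragolumab), 24.1, 30.4 and 14.98 FPKM (pembrolizumab + HLX53) and 0.956, 4.12 and 33.7 FPKM (pembrolizumab + tiragolumab). Krt19 was above Krt8 in 23 of 27 tumours of T2215 and in 16 of 18 of T2106.

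Krt7, at lower levels, had the same high tumours: 3.66 FPKM in tumour 1 of serplulimab, 5.19 FPKM in tumour 2 of serplulimab + HLX53, 5.13 FPKM in tumour 3 of pembrolizumab + tiragolumab and 2.69 FPKM in tumour 2 of HLX53. With pembrolizumab + HLX53 it was at 2.21, 2.50 and 1.95 FPKM, all above the vehicle values of 1.07, 0.0555 and 0.962 FPKM, a difference of 1.32 ± 0.79 that did not pass (limma, adjusted p = 0.749).

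Krt18 was at 42.7, 15.7 and 9.03 FPKM with serplulimab, 22.3, 13.03 and 10.8 FPKM with pembrolizumab, 15.4, 25.0 and 18.7 FPKM with HLX53 and 7.84, 9.84 and 14.4 FPKM with tiragolumab. It was at 15.5, 4.49 and 18.5 FPKM with serplulimab + tiragolumab, 17.6, 22.6 and 21.3 FPKM with pembrolizumab + HLX53 and 12.3, 15.8 and 32.6 FPKM with pembrolizumab + tiragolumab. Krt18 varied less than Krt8 within every T2215 group, with the highest tumour 1.28 to 4.73 times the lowest for Krt18 and 1.55 to 94.2 times the lowest for Krt8. Krt18 was the highest keratin in tumour 1 of serplulimab and tumour 2 of serplulimab + HLX53, in place of Krt20.

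Krt20 was at 36.4, 119 and 91.5 FPKM with serplulimab, 78.7, 77.3 and 84.2 FPKM with pembrolizumab, 130.3, 34.3 and 76.5 FPKM with HLX53 and 71.3, 63.8 and 103 FPKM with tiragolumab. With the combinations it was at 131, 73.2 and 86.7 FPKM (serplulimab + tiragolumab), 38.4, 138 and 98.6 FPKM (pembrolizumab + HLX53) and 111, 91.5 and 96.6 FPKM (pembrolizumab + tiragolumab). The tumours lowest for Krt20 after tumour 2 of serplulimab + HLX53 were tumour 1 of vehicle, tumour 2 of HLX53 and tumour 1 of serplulimab, at 33.7, 34.3 and 36.4 FPKM.

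Krt5 outside tumour 2 of serplulimab + tiragolumab was at most 5.95 FPKM, with values of 4.28, 0.133 and under 0.001 FPKM for serplulimab, 0.0447, 3.27 and 0.623 FPKM for HLX53 and under 0.001, 0.168 and 2.51 FPKM for pembrolizumab + tiragolumab. It was at 1.07, under 0.001 and 0.240 FPKM with vehicle and at 0.597, 0.473 and 0.0108 FPKM with pembrolizumab. It was at under 0.001, 0.286 and 0.0679 FPKM with tiragolumab and at 1.24, 1.21 and 0.568 FPKM with pembrolizumab + HLX53. The highest of these tumours were those with high Krt8. Adipocyte markers summed to 3002 FPKM in tumour 1 of serplulimab, 926 FPKM in tumour 2 of HLX53 and 664 FPKM in tumour 3 of pembrolizumab + tiragolumab. The median over the 27 tumours was 197 FPKM. Tumour 3 of serplulimab went the other way. Its adipocyte score, the mean log2 level of the markers, was 5.06. Tumour 2 of HLX53 was at 4.94 and tumour 3 of pembrolizumab + tiragolumab at 4.53. Yet its Krt5 was under 0.001 FPKM and its Krt8 at 0.245 FPKM. The part of the adipocytes in these keratin levels was not tested. Krt14 was below Krt5 in 17 of the 18 tumours of T2215 in which both were at 0.1 FPKM or more, and in all 6 such tumours of T2106.

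Krt14 was at 0.622, 0.0324 and 0.106 FPKM with vehicle, 4.10, 0.240 and 0.116 FPKM with serplulimab, 0.379, 0.315 and 0.0658 FPKM with pembrolizumab and 0.0220, 2.55 and 0.344 FPKM with HLX53. It was at 0.0195, 0.146 and 0.0350 FPKM with tiragolumab, 0.911, 0.763 and 0.329 FPKM with pembrolizumab + HLX53 and under 0.001, 0.0752 and 1.89 FPKM with pembrolizumab + tiragolumab. With serplulimab + HLX53 it was at 0.602, 5.72 and 0.0666 FPKM, and with serplulimab + tiragolumab at 0.455, 24.3 and 0.381 FPKM. The 5 highest tumours for Krt14 were the 5 highest for Krt5, in the same order.

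Krt17 was under 0.5 FPKM in 22 of 27 tumours of T2215. The 5 above were tumour 2 of serplulimab + tiragolumab at 5.66 FPKM, tumour 1 of serplulimab at 3.45 FPKM, tumour 2 of serplulimab + HLX53 at 2.75 FPKM, tumour 3 of pembrolizumab + tiragolumab at 1.45 FPKM and tumour 2 of HLX53 at 0.875 FPKM. Krt15 was under 0.5 FPKM in 25, the exceptions being tumour 2 of serplulimab + tiragolumab and tumour 1 of serplulimab, at 13.3 and 1.06 FPKM. Krt23, tested in T2215 only, had its highest value of 1.89 FPKM in tumour 1 of pembrolizumab + HLX53 and a median of 0.0334 FPKM. Krt10 was at 0.943 to 2.71 FPKM in the 26 tumours outside tumour 2 of serplulimab + tiragolumab, a range that held all vehicle tumours at 1.23, 1.21 and 1.37 FPKM.

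**Figure D4:**
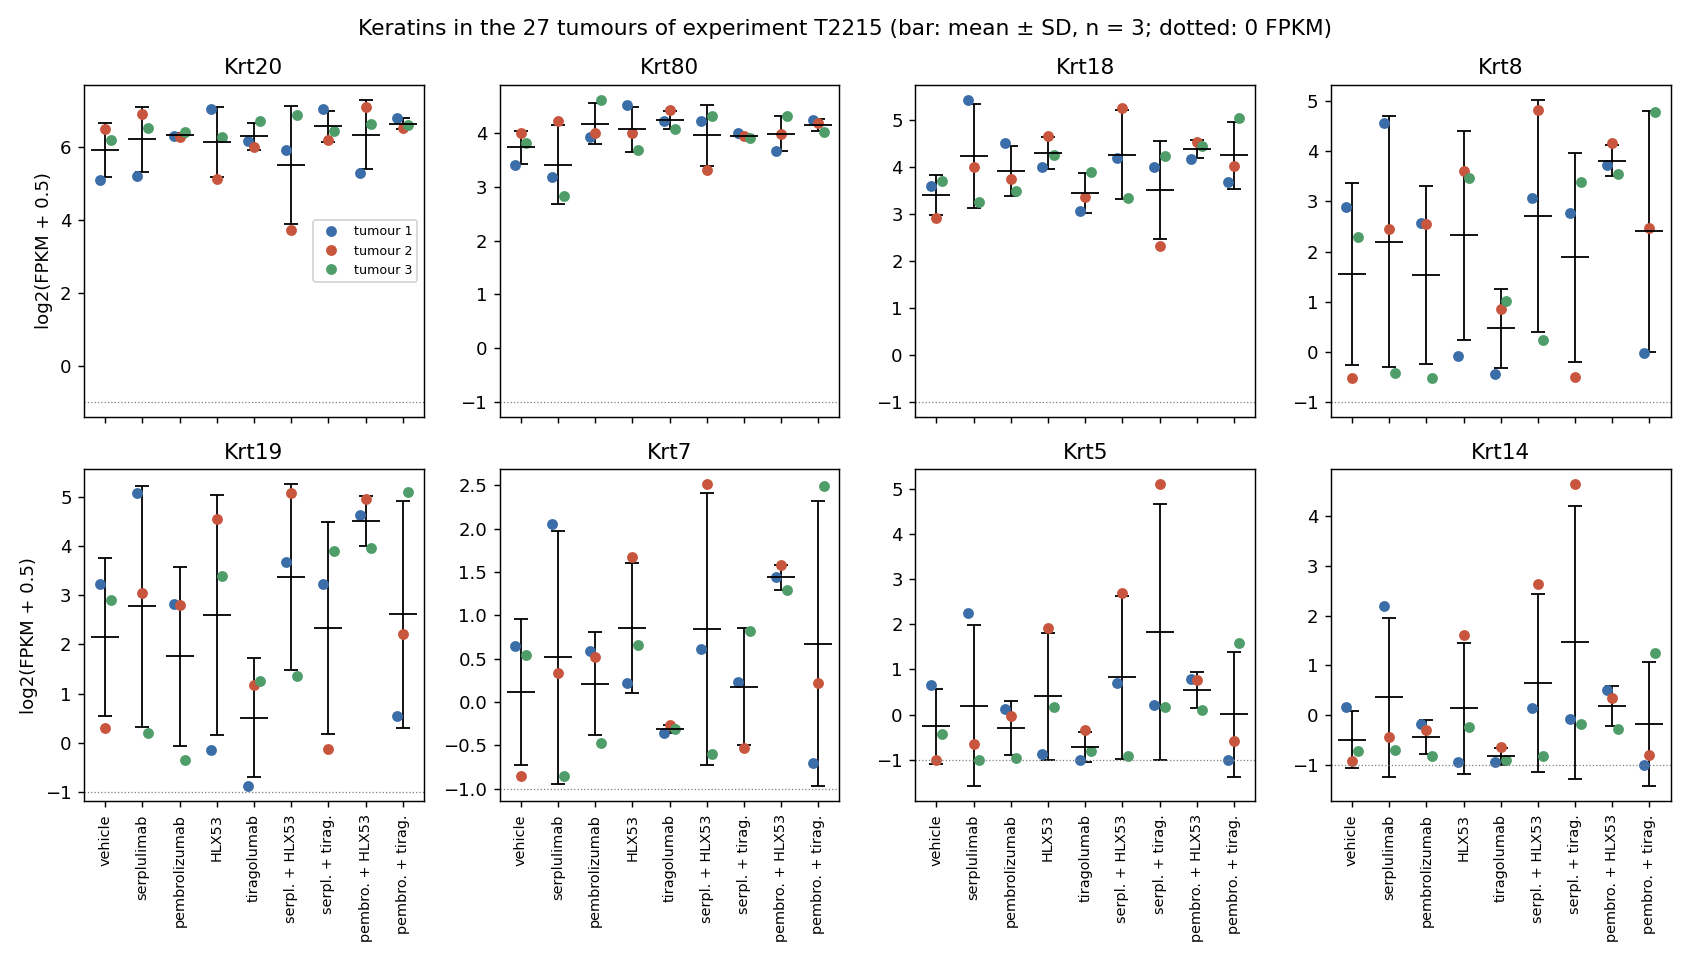
Levels of 8 keratins as log2(FPKM + 0.5) in the 9 groups of T2215, with a point for each tumour, bars for mean ± SD (n = 3) and a dotted line at 0 FPKM. Tumours of a group lie several log2 units apart for Krt8, Krt19, Krt5 and Krt14, and all 27 are above 4 FPKM for Krt18, Krt80 and Krt20.

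Tumour 2 of serplulimab + tiragolumab had a keratin make-up of its own. Krt10 was at 37.2 FPKM there and at 1.28 and 1.14 FPKM in tumours 1 and 3 of its group, and the next highest tumour of T2215 was at 2.71 FPKM. Krt5 was at 33.8 FPKM, against 0.658 and 0.618 FPKM, Krt14 at 24.3 FPKM, against 0.455 and 0.381 FPKM, and Krt15 at 13.3 FPKM, against 0.0307 and 0.0430 FPKM. Krt1, the suprabasal partner of Krt10, was at 10.2 FPKM where no other tumour of T2215 was above 0.0225 FPKM.

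Krt77, a type II keratin of mouse skin, was at 18.7 FPKM where no other tumour of T2215 was above 0.00687 FPKM. Krt79, known from the hair follicle canal, was at 4.85 FPKM against at most 0.168 FPKM elsewhere. Krt17 was at 5.66 FPKM. Of the 17 stratified keratins 10 had their highest value of T2215 in this tumour and 8 were at 0.5 FPKM or more in it. They summed to 148.8 FPKM and made up 61.1% of its keratin FPKM, against at most 11.4% in the other 26 tumours.

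The simple keratins of this tumour were low, apart from Krt20 at 73.2 FPKM. Krt8 was at 0.210 FPKM, Krt19 at 0.423 FPKM and Krt7 at 0.195 FPKM, and Krt18 at 4.49 FPKM was the lowest of the 27. Some genes of the cornified epidermis were high with its keratins. Lor, a main protein of the cornified envelope, was at 11.6 FPKM, Krtdap at 46.0 FPKM and Ivl at 0.454 FPKM. The next highest tumours were at 0.0749, 3.24 and 0.0465 FPKM. Dmkn, Serpinb5 and Calml3 were also highest in this tumour, at 25.8, 1.93 and 1.29 FPKM. Other genes of that list peaked elsewhere: Sbsn and Ly6d in tumour 2 of HLX53, at 21.6 and 9.38 FPKM, and Lgals7 in tumour 3 of serplulimab, at 348 FPKM. Among the tumours with high Krt5, tumour 2 of serplulimab + tiragolumab was the only one of T2215 with Krt1 and Krt77 above 1 FPKM.

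The group's comparison with vehicle rested on it. Krt10 differed by 1.44 ± 0.69 with an unadjusted p of 0.0485 (limma, adjusted p = 0.999999), and Krt5 by 2.09 ± 1.14 (limma, adjusted p = 0.999999). With the library left out, an alternative chosen after seeing the data, the differences were −0.05 and 0.45, and the count of keratins called in limma was 0 as before.

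**Figure D5:**
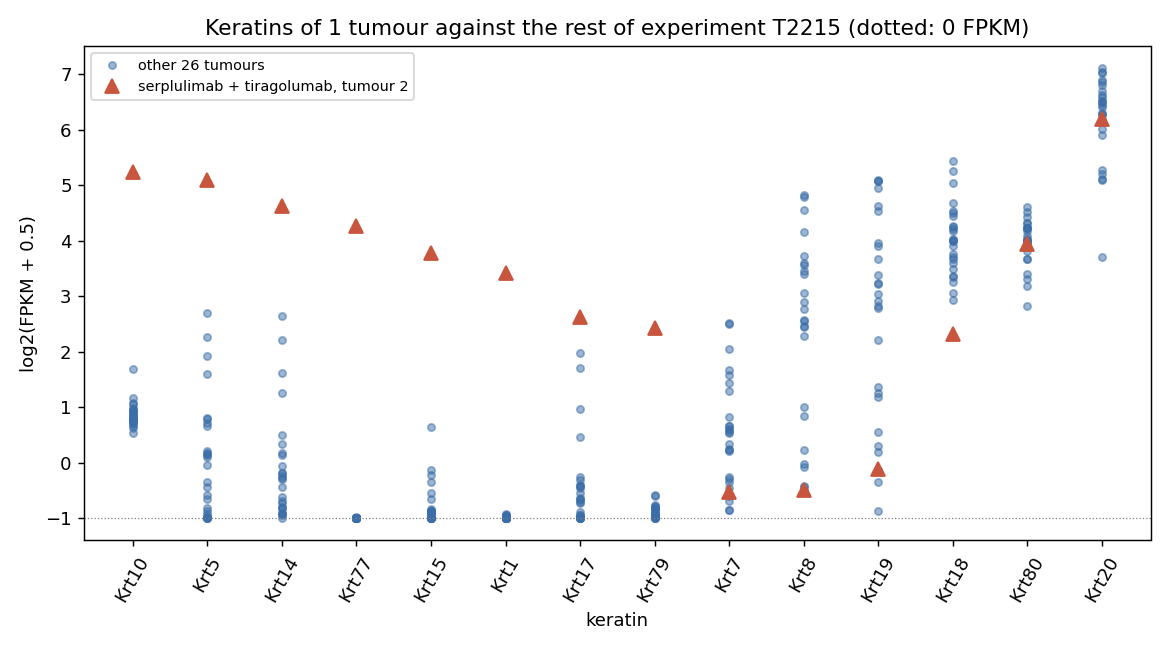
Levels of 14 keratins as log2(FPKM + 0.5) in tumour 2 of serplulimab + tiragolumab (triangles) and in the other 26 tumours of T2215 (circles), with a dotted line at 0 FPKM. The triangles stand above all circles for Krt10, Krt5, Krt14, Krt77, Krt15, Krt1, Krt17 and Krt79, below all for Krt18, and within them for Krt80 and Krt20.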

How the data were processed

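Tumour RNA of 45 mice was sequenced as paired-end reads, per the labels' protocols. The authors deposited a table per experiment of log2 values named as FPKM in the file headers, and the low values near 0 are as deposited. The submitters' processing notes list STAR, Bowtie, Trimmomatic and FastQC with the builds mm10, hg19 and GRCh37 and no roles. The program behind the values and the strand of counting are not given in the sources used here. Without read depth, counting error cannot be given an interval. Normalisation was separate for each table, so each experiment has its own fit.

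From the deposited log2 values FPKM was computed back, and tests used log2(FPKM + 0.5). Genes at 0.5 FPKM or more in at least 3 libraries of an experiment entered a limma fit over its full set of groups (version 3.58.1, R 4.3.3, using lmFit, contrasts.fit and a trended eBayes), checked first on simulated data. P-values were adjusted by Benjamini-Hochberg across the genes of the experiment, with 0.05 as the threshold. No label pairs the tumours, and the p-values measure only their spread. T2106 gave 9 comparisons and T2215 gave 13. Differences between experiments were tested by exact permutation, and values under 0.001 FPKM are not printed. Figures were drawn with Python 3.11.15 and matplotlib 3.10.9.

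The keratins and the context lists, as well as the rule for genes described tumour by tumour (Krt1, Krt5, Krt7, Krt8, Krt10, Krt14, Krt15, Krt17, Krt18, Krt19, Krt20 and any past the threshold against vehicle, with up to 4 genes of smallest p named for each context list), were chosen with earlier results of these data known. The context lists were desmosomes and hemidesmosomes, epidermal cornification, epithelial transcription factors, epithelial surface and junctions, intestinal epithelium, mammary gland, sebaceous gland, hair follicle, adipocytes, skeletal muscle, mesothelium and other intermediate filaments. Flg stood on several rows of the tables and was not used. Krt85 and Krt87 were not analysed here. Near-identical genes can share reads. Alternatives were pseudocounts of 0.1 and 1, no filter, centred libraries, a replicate block, a fit of the compared libraries only, each replicate left out, and, added after seeing the data, a doubted library left out and an adipocyte covariate.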

Additional observations from a re-analysis of the deposited data

How the results depend on the processing

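Counts of keratins past the threshold in limma moved by over 1.5 times in the comparisons of the full-dose combination of T2106 and, with 1 tumour left out, in that of the lower-dose combination with vehicle. Against serplulimab the count of 5 became 2 with a pseudocount of 0.1. Against the lower-dose combination the count of 5 became 0 with a pseudocount of 0.1, 1 with libraries centred on their medians, 0 with only the compared libraries and 3 with the replicate block. Without tumour 2 of the lower-dose combination both counts were 10. With the adipocyte score as a covariate the counts against vehicle, serplulimab, HLX53, the lower-dose combination and pembrolizumab + tiragolumab were 0 each, and the Krt19 difference from vehicle turned from 3.91 to −0.0482 (adjusted p = 0.999). The causes of these shifts were not tested.

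With 1 tumour left out at a time the count ranged from 5 to 9 against vehicle (reported 9), 0 to 9 against serplulimab (5), 4 to 9 against HLX53 (10), 5 to 9 against pembrolizumab + tiragolumab (10) and 0 to 10 against the lower-dose combination (5). The lower-dose combination against vehicle gave 0 to 2 (reported 0), the 2 without its tumour 3. Against HLX53 the count was 6 without tumour 2 of HLX53, 6 without tumour 1 and 4 without tumour 3 of the full-dose combination. Against pembrolizumab + tiragolumab it was 6 and 5 without tumours 1 and 3 of the full-dose combination. In T2215 the count of 0 held under every alternative run. Without the filter on low values the count against vehicle in T2106 was again 9, but Krt8, Krt19 and Krt20 then missed the threshold (adjusted p = 0.0503, 0.0625 and 0.0697). Krt80 passed against vehicle with centred libraries, with only the compared libraries, without tumour 2 of the lower-dose combination and without tumour 2 of the full-dose combination (adjusted p = 0.0414, 0.0297, 0.00318 and 0.0318).

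Replicate numbers were checked for pairing. Over the 45 pairs of same-numbered tumours in T2106 the deviations from group means correlated at −0.683 to 0.624 (median −0.03), and over the 108 pairs in T2215 at −0.739 to 0.723 (median −0.04). A tumour correlated best with its own number in 7 of 18 and 10 of 27 cases. These counts were not tested, and so few tumours per group cannot exclude a shared block. As no label pairs the tumours, the numbers were used only as names. The replicate block moved no other keratin count by over 1.5 times. Read depth is unknown and genes under 0.5 FPKM are the least certain.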
